A study of Drosophila melanogaster with 4 samples.

Results

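The dpp-group genes are 10 genes of the dorsal side of the Drosophila embryo: dpp, scw, tld, zen, tup, ush, pnr, Doc1, Doc2 and Ance. They were chosen by name, as genes of the dorsal ectoderm and of the amnioserosa, the squamous epithelium that covers the dorsal opening of the embryo until dorsal closure. Each was looked for among the cDNA clones whose platform annotation lists 1 gene, and 9 of the 10 were found, each with 1 clone, among 8210 genes with a value on at least 3 arrays. No such clone listed zen, so zen has no value here. All 9 measured genes had a value on all 4 arrays.

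In the early embryo the dorsal side is patterned by bone morphogenetic protein (BMP) signalling. The BMP ligands Dpp and Scw are held by the inhibitor Sog and released when the protease Tld cleaves Sog, so that signalling peaks along the dorsal midline. There it maintains a set of dorsal transcription factors (Zen, Tup, Ush, Pnr and the T-box proteins Doc1 and Doc2), and cells with the highest signal become amnioserosa. The early genes of this group are transcribed from the embryo's own genome from the syncytial blastoderm on. Several, dpp, tld and zen among them, are kept off the ventral side by the maternal factor Dorsal, whereas scw is transcribed throughout the blastoderm.

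The arrays compared RNA of laser-wounded embryos with RNA of embryos handled alike but not wounded, at 0 min after wounding. The paper places its syncytial embryos at early nuclear cycles, living mostly on maternal products and with minimal zygotic transcription. Both groups came from a collection of 0 to 1 h and carried the sGMCA actin reporter. This reporter is a GFP-tagged actin-binding fragment of moesin driven from the spaghetti squash promoter. The embryos of both groups were dechorionated by hand, kept under halocarbon oil, and frozen straight after recovery. The only difference described between the groups is the wounding (8 wounds in each wounded embryo). For each of 4 arrays, named experiments 3, 4, 7 and 8, 30 ug of total RNA of either group was labelled with Cy3 or Cy5 and hybridised together to spotted cDNA clones. By the labels Cy3 marked the wounded sample in experiments 3, 7 and 8 and the unwounded sample in experiment 4, the dye swap. Within experiments 3, 7 and 8 dye and wounding therefore cannot be told apart.

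The value of a gene on an array is the deposited log2 ratio of the 2 channels, normalized by loess within the array, in which 0 means equal signal. The sources do not say which channel stands on top, so no difference is called higher or lower in wounded embryos. Since whole embryos were extracted, fewer cells or nuclei that express a gene and less RNA in each cannot be told apart. A sign given for 1 array is that of the deposited ratio. Means over the arrays are given in size, once with experiment 4 given the opposite sign (turned, which holds if the ratio is Cy5 over Cy3) and once with it left as deposited (not turned, which holds if the ratio already runs between the conditions). The values carry no intensities, so whether a clone gave signal above background, and with it whether these genes were expressed in the embryos at all, cannot be read from them. Over 8192 genes with a value on every array, experiments 7 and 8, which have the same dyes, correlated at -0.33 (Pearson), and the other 5 pairs lay between -0.13 and 0.29. Genes are not independent replicates, and these correlations are descriptions.

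Measured across the arrays, the dpp-group genes did not keep 1 sign. In experiment 7 all 9 had a deposited ratio below 0, with a median of -0.61 and a range from -0.78 to -0.0047, where 47.2% of all genes lay below 0. In experiment 8 only 2 of the 9 lay below 0, with a median of 0.22 and a range from -0.48 to 0.46, where 53.9% of all genes did. In experiment 3 the count below 0 was 8 of 9 against 57.1% of all genes, with a median of -0.11 and a range from -0.49 to 0.24. In experiment 4 it was 6 of 9 against 50.7%, with a median of -0.08 and a range from -0.39 to 0.42. The medians of all genes were -0.03, -0.0029, 0.01 and -0.02 in experiments 3, 4, 7 and 8.

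**Figure D1:**
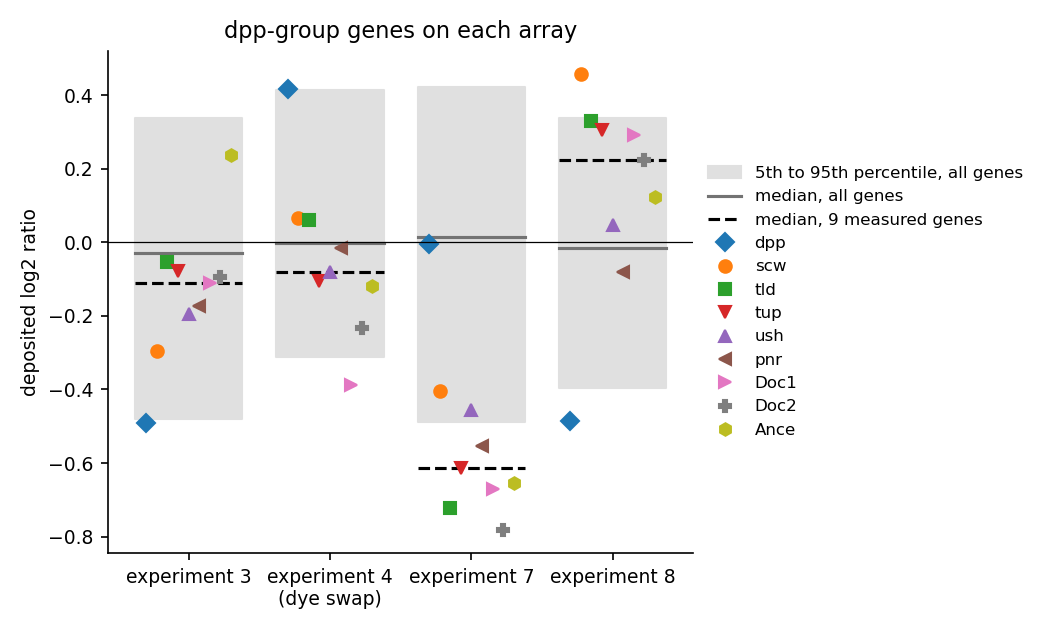
Deposited log2 ratio (vertical axis) of the 9 measured dpp-group genes on each of 4 arrays (horizontal axis), with 1 point per gene, a dashed line at their median, a grey line at the median of all genes and a grey band from the 5th to the 95th percentile of all genes. In experiment 7 the median of the dpp-group genes is -0.61, and 6 of them lie under the band.

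The spread of all genes sets the scale for these values. Over genes its standard deviation was 0.337, 0.254, 0.284 and 0.249 in experiments 3, 4, 7 and 8, or 0.386, 0.276, 0.318 and 0.276 over all probes. Among the dpp-group genes it was 0.196, 0.224, 0.235 and 0.283. In experiment 7, 6 of the 9 genes lay below the 5th percentile of all genes (-0.49), and 5 lay at or beyond 1.5-fold below 0, a limit passed by 3.35% of all genes. On the other arrays 0 of the 9 reached 1.5-fold in either direction, where 5.46% of all genes did in experiment 3, 2.56% in experiment 4 and 3.31% in experiment 8.

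Among the extracellular members, dpp encodes the BMP ligand that gives the group its name. Its clone RE20611 had deposited log2 ratios of -0.49, 0.42, -0.0047 and -0.48 in experiments 3, 4, 7 and 8. These lie at the 4.77th, 95.1st, 46.2nd and 2.98th percentiles of all genes on the respective arrays. On all 4 arrays dpp fell outside the range of the 8 other members, and in experiment 7, where those ranged from -0.78 to -0.41, it was nearest to 0.

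For scw, the partner ligand that forms heterodimers with Dpp, clone LD30945 had ratios of -0.30, 0.07, -0.41 and 0.46 in experiments 3, 4, 7 and 8. The value in experiment 8 was the highest of all members on any array and lay at the 97.1st percentile of all genes. The protease gene tld, read by clone RE25412, had -0.05, 0.06, -0.72 and 0.33. It was close to 0 in experiments 3 and 4, and its gap of 1.05 between experiments 7 and 8 was the widest among the 9 genes.

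Ance encodes a peptidase related to angiotensin-converting enzyme and is a marker of the amnioserosa. Clone LD11258 had ratios of 0.24, -0.12, -0.65 and 0.12 in experiments 3, 4, 7 and 8. It was the only member above 0 in experiment 3, at the 90.5th percentile of all genes, and its value in experiment 7 lay at the 2.36th percentile.

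Of the transcription regulators, the T-box genes Doc1 and Doc2 had values close to each other, at a Euclidean distance of 0.205 over the 4 arrays. The ratios of Doc1, from clone RE59988, were -0.11, -0.39, -0.67 and 0.29 in experiments 3, 4, 7 and 8, and those of Doc2, from clone RE40937, were -0.10, -0.23, -0.78 and 0.22. Both were below 0 in experiments 3, 4 and 7 and above 0 in experiment 8, and Doc2 had the lowest ratio of any member, a 1.72-fold difference between the channels in experiment 7. The starts of both genes neighbour each other among protein-coding genes in RefSeq (Release 6 assembly), and as genes of 1 family their clones may share sequence, which was not tested. Doc3, also of this cluster, had -0.05, -0.20, -0.57 and 0.28.

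A LIM-homeodomain factor is encoded by tup. Its clone GH12341 had ratios of -0.08, -0.10, -0.61 and 0.31 in experiments 3, 4, 7 and 8. Of all members tup lay nearest to the median of the group over the 4 arrays, at a Euclidean distance of 0.093. The GATA factor gene pnr, read by clone SD02611, had -0.17, -0.01, -0.55 and -0.08, and was the only member below 0 on all 4 arrays. For ush, which encodes a zinc-finger cofactor that binds GATA factors such as Pnr, clone LD12631 had -0.19, -0.08, -0.46 and 0.05. Both pnr and ush were low in experiment 7 and close to 0 in experiment 8, and of all pairs of members they lay nearest to each other, at a distance of 0.176.

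Set side by side, 7 of the 9 genes lay below 0 in experiment 7 and above 0 in experiment 8, where 26.9% of 8196 genes did. The exceptions were dpp and pnr. Experiment 7 held the lowest of the 4 ratios for 8 of the 9 genes, against 25.6% of all genes, and experiment 8 the highest for 6 of the 9, against 27.1%. The ratio in experiment 8 exceeded that in experiment 7 by 0.47 to 1.05 for the 8 members other than dpp, which lie between the 91.3rd and the 97.8th percentile of this gap over all genes. For dpp it was 0.48 lower in experiment 8 (10.3rd percentile). Each array is 1 hybridisation without a repeat, so a gap between 2 arrays has no error of its own. The opposite signs of the 2 arrays at early zygotic genes were known before these counts were made, so the counts describe them and test nothing.

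**Figure D2:**
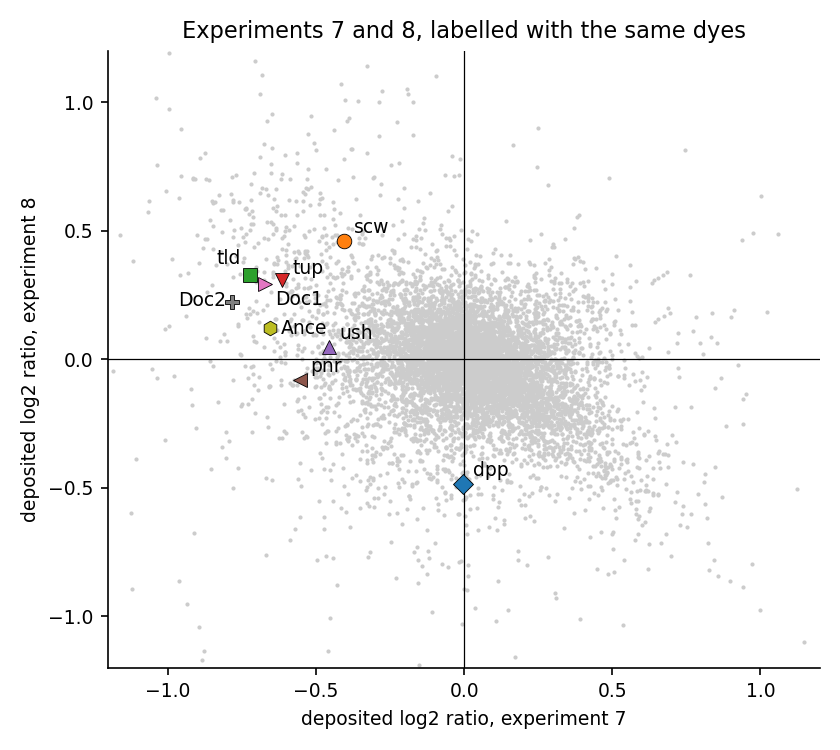
Deposited log2 ratio in experiment 8 (vertical axis) against that in experiment 7 (horizontal axis) for 8160 genes (grey) and the 9 dpp-group genes (named symbols), with 36 genes beyond 1.2 on either axis not drawn. In the upper left part of the plot are 7 of the 9, pnr lies under them at -0.55 and -0.08, and dpp lies apart at -0.0047 and -0.48.

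To ask whether wounding changed these genes at 0 min, the mean of the 4 arrays was tested against 0 with limma, fitted on all 8210 genes with Benjamini-Hochberg adjustment, with a gene called at a false discovery rate of 5% and a change of 1.5-fold, as in the methods. With experiment 4 turned, 0 of the 9 genes passed, as did 0 of all 8210 (0%). The same counts held with experiment 4 not turned (0 of 9 and 0%). At an unadjusted p under 0.05 there was 1 member, dpp, against 4.91% of all genes with experiment 4 turned, and 0 members against 2.5% with it not turned. With experiment 4 turned, dpp no longer reached that level without experiment 3, 4 or 8, where its mean was -0.30, -0.33 and -0.30 against -0.35 over 4 arrays. It did reach it without experiment 7, with a mean of -0.46. These signs are those of the deposited ratio in experiments 3, 7 and 8. The methods call the 4 arrays independent replicates without naming separate fly cultures, so a p-value here covers the spread among 4 arrays, which may be partly technical.

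The mean log2 ratio of dpp had a size of 0.35 with experiment 4 turned (SD 0.232 over 4 arrays, limma adjusted p = 0.912, unadjusted p = 0.0143) and 0.14 with it not turned (SD 0.436, limma adjusted p = 0.997). Turned, its 4 values were on 1 side of 0, with that of experiment 7 close to 0, and dpp stood at the 97.4th percentile of all genes by the size of the mean, and at the 81.9th not turned. Not turned, the means of Doc2, Doc1, pnr and ush were larger than that of dpp. The next largest turned mean was that of pnr, at 0.20 (SD 0.25 over 4 arrays, limma adjusted p = 0.998), which stayed at 0.21 with experiment 4 not turned (SD 0.242, limma adjusted p = 0.997). The means of ush were 0.13 and 0.17 in size, turned and not turned, those of tld 0.13 and 0.10, and those of scw 0.08 and 0.04. For tup they were 0.07 and 0.12, for Ance 0.04 and 0.10, for Doc1 0.03 and 0.22, and for Doc2 0.11 and 0.22. How experiment 4 was read moved the mean of dpp the most, by 0.208, followed by Doc1 with 0.194 and Doc2 with 0.116, and the other 6 means by at most 0.059. Among the 9 genes, the SD over arrays ran from 0.232 to 0.482 turned and from 0.214 to 0.447 not turned, and only the turned mean of dpp was larger than its SD.

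All 9 means lay on 1 side of 0, with experiment 4 turned (49.5% of all genes on that side) and not turned (54.1%). The count depended on single arrays. Without experiment 7 and with experiment 4 turned, the means of scw, tld, tup, Doc1, Doc2 and Ance changed side, to 0.03, 0.07, 0.11, 0.19, 0.12 and 0.16 in size. With experiment 4 not turned, leaving out experiment 7 moved scw, tld, tup and Ance across 0, to 0.077, 0.11, 0.04 and 0.08, but not Doc1 and Doc2. Without experiment 3, Doc1 changed side turned (0.0031) and scw not turned (0.04). The 95% interval of the mean from limma, not adjusted for the number of genes, stayed within 1.5-fold in both directions for 8 of the 9 genes with experiment 4 turned, all but dpp, against 92.2% of all genes. It did for 7 of the 9 with experiment 4 not turned, all but Doc1 and Doc2, against 92.0%. A mean of values with opposite signs is small whether or not single arrays are far from 0, so these intervals bound a change only if the arrays were read in the right direction.

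**Figure D3:**
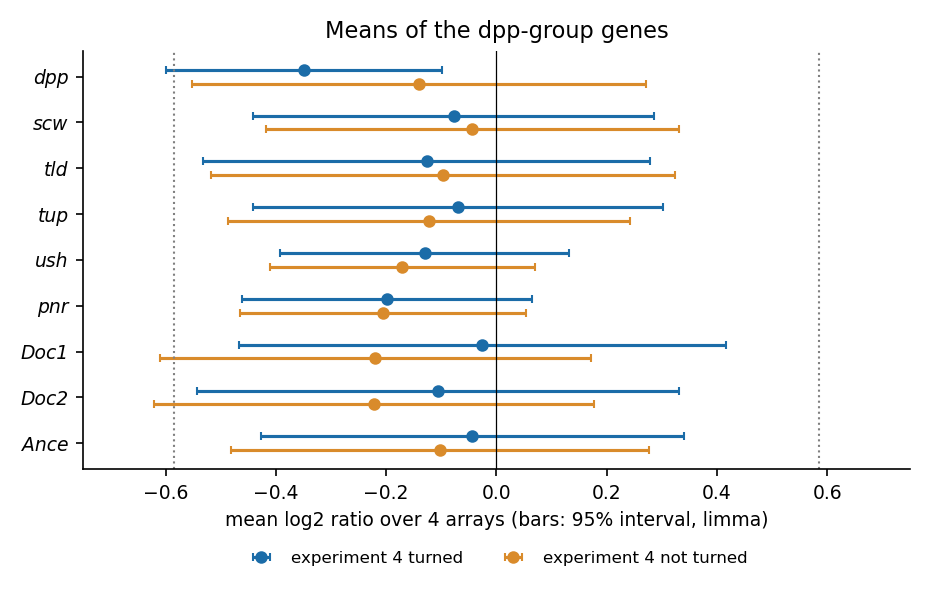
Mean log2 ratio over 4 arrays (horizontal axis) of each measured dpp-group gene, with bars for the 95% interval from limma and dotted lines at 1.5-fold, for experiment 4 turned (blue) and not turned (orange). The sign is that of the deposited ratio in experiments 3, 7 and 8 and carries no direction of wounding. Of 18 intervals, that of dpp with experiment 4 turned is the only one that leaves out 0.

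The other genes of BMP signalling give the setting for these members. Of 20 listed BMP pathway genes that are not members, 14 were measured, among them the ligand genes gbb and mav, the receptor genes tkv, sax, put and wit and the signal transducers Mad and Med. None of the 14 passed the test with experiment 4 turned or not. An unadjusted limma p under 0.05 was found for 2 of them turned and 1 not turned, against 4.91% and 2.5% of all genes. Their median ratios were 0.0047, 0.03, -0.17 and 0.05 in experiments 3, 4, 7 and 8. Where 26.9% of all genes lay below 0 in experiment 7 and above 0 in experiment 8, 8 of the 14 (57.1%) did. Ordered by the turned mean, the lowest was that of cv, which encodes a BMP-binding protein related to Tsg. Its ratios were -2.21, 0.55, -2.17 and 0.10, and the mean was 1.21 in size (limma adjusted p = 0.973) or 0.93 with experiment 4 not turned (limma adjusted p = 0.997). The ratios of Med, the common-mediator Smad, were -0.22, 0.09, -0.23 and -0.39, with a mean of 0.23 in size (limma adjusted p = 0.963) or 0.19 not turned (limma adjusted p = 0.997). At the other end were Dad, an inhibitory Smad, with 0.18, 0.05, 0.14 and 0.13, and wit, a type II receptor, with 0.19, 0.22, 0.05 and 0.20. These 2 genes kept 1 sign on the deposited scale, and their means were 0.10 and 0.06 in size turned and 0.12 and 0.16 not turned.

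Of 11 other listed genes of the dorsal ectoderm and amnioserosa, 6 were measured (Doc3, peb, srp, egr, Kr and Egfr). Where 26.9% of all genes lay below 0 in experiment 7 and above 0 in experiment 8, all 6 did. Their median ratios were -0.14, -0.04, -0.59 and 0.50 in experiments 3, 4, 7 and 8, and 0 of the 6 passed the test or had an unadjusted p under 0.05. Kr, a gap gene that is later expressed in the amnioserosa, had -0.29, -0.02, -0.74 and 0.49. The zinc-finger gene peb, also known as hindsight, had 0.03, 0.37, -0.51 and 0.51, and egr, which encodes a TNF-family ligand, had -0.02, -0.05, -0.63 and 0.51. With experiment 4 turned, the means of Kr, peb, egr and Doc3 were 0.13, 0.08, 0.02 and 0.03 in size, and with it not turned they were 0.14, 0.10, 0.05 and 0.14. The mean of peb lay on opposite sides of 0 in these readings.

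The same signs were found beyond the dorsal side. Of 21 other measured early zygotic genes (39 listed), which include gap, pair-rule, mesoderm and cellularization genes, 20 had values in experiments 7 and 8. Where 26.9% of all genes lay below 0 in the former and above 0 in the latter, 16 of these 20 (80.0%) did. Their medians were -0.22, -0.02, -0.48 and 0.34 in experiments 3, 4, 7 and 8. Of the 21 genes 0 passed the test. With experiment 4 turned 2 had an unadjusted limma p under 0.05, and 2 with it not turned, against 4.91% and 2.5% of all genes. Of 23 measured maternal and germ plasm mRNAs (28 listed), 7 had these signs (30.4%), near the share of all genes. The medians of these mRNAs were 0.07, -0.11, -0.02 and -0.02. Differences between the dpp-group genes and these lists were not tested, and the lists share the same 4 arrays.

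**Figure D4:**
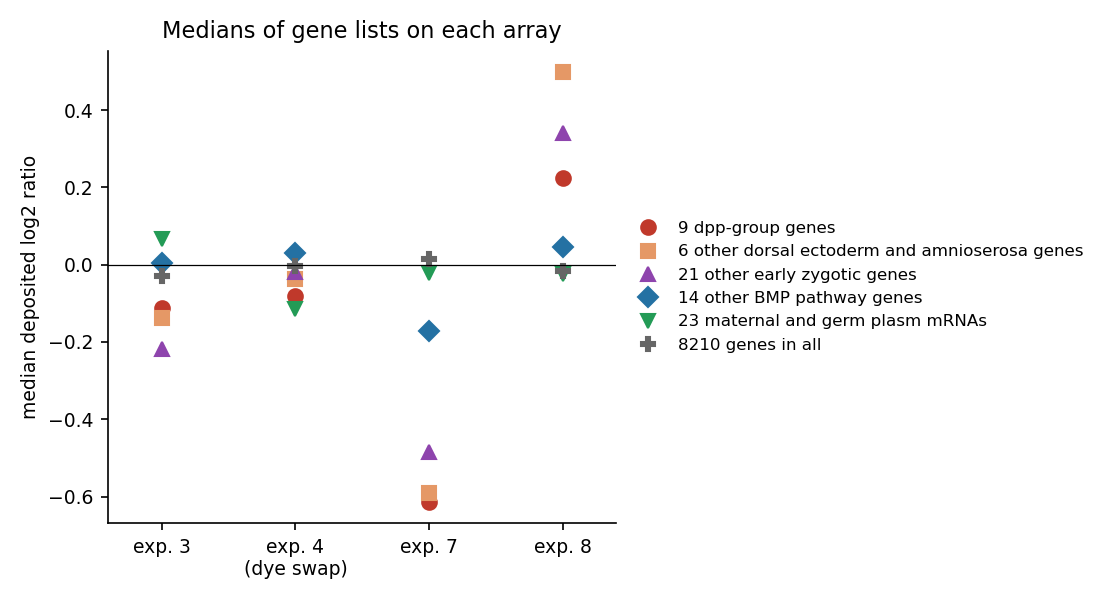
Median deposited log2 ratio (vertical axis) of the dpp-group genes, of 4 other gene lists and of all genes on each of 4 arrays (horizontal axis). In experiments 7 and 8 the medians of the dpp-group genes (-0.61 and 0.22), of the other dorsal genes (-0.59 and 0.50) and of the other early zygotic genes (-0.48 and 0.34) lie on opposite sides of 0, while that of the maternal mRNAs is -0.02 on both.

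Markers of tissues that embryos of 0 to 1 h should not have were read on the same arrays. Of 16 listed muscle, neuron, cuticle and blood cell genes of older embryos, 8 were measured. Their medians were 0.21, 0.45, 0.0063 and 0.03 in experiments 3, 4, 7 and 8. Where 26.9% of all genes lay below 0 in experiment 7 and above 0 in experiment 8, 1 of the 8 (12.5%) did. In experiment 4, 0 of the 8 lay below 0, where 50.7% of all genes did. Single genes ran far from 0, such as Mlc2, a myosin light chain gene, at 3.46 in experiment 3, and elav, a neuronal gene, at 1.88 in experiment 8. The other muscle genes Mlc1, up and Act87E had 1.12, 0.37 and -0.05 in experiment 3. The other neuronal gene nrv3 had -0.05 in experiment 8, and elav itself had -0.20 in experiment 3. Of 9 listed follicle cell and yolk genes only Yp1, Yp2 and Yp3 were measured, with medians of -0.25, 0.16, -0.52 and 0.13. Of these 3, 2 lay below 0 in experiment 7 and above 0 in experiment 8 (Yp1 and Yp3). Yp2 had the opposite signs, at 0.13 and -0.29. The part of embryo age or of other tissue in the values of the dpp-group genes was not tested.

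The 5 genes nearest to the median profile of the dpp-group genes (-0.11, -0.08, -0.61 and 0.22) by Euclidean distance over the 4 arrays were CG4839, CG5532, bou, CG6262 and lncRNA:CR31044, at distances from 0.056 to 0.123 among 8183 genes that are not members and have 4 values. Their ratios in experiment 7 ran from -0.61 to -0.50 and in experiment 8 from 0.18 to 0.27. Of those 8183 genes, 3 lay nearer to the profile than tup, 40 nearer than tld, 47 nearer than Doc2 and 68 nearer than ush. The numbers were 179 for Doc1, 181 for pnr, 306 for Ance and 378 for scw. The profile is the members' own median, so the nearness of members to it is partly built in. For dpp the number was 7266, so that dpp lay farther from the group's own median than most other genes on the array did. With 4 arrays this measure of likeness is coarse.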

How the data were processed

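The authors scanned the FHCRC Fly 12k cDNA arrays and analysed the images in GenePix Pro and deposited log2 ratios, normalized by loess within each array in limma (version not given in the sources used here). Their methods remove dim and flagged spots; whether this preceded deposition is not stated. Of 12144 spots, 160 controls (plant genes and genomic DNA) were left out. Of 11984 probes, 9917 listed 1 gene, 625 several and 1442 none. Symbols were updated by gene ID through RefSeq Release 6 for 9746 probes and by synonym for 138, and 33 were kept. Spots of a gene were averaged per array. The 8210 genes measured on 3 or more arrays entered 1 limma fit (version 3.58.1, R 4.3.3; lmFit, eBayes, two-sided, mean against 0). Calls needed a Benjamini-Hochberg adjusted p below 0.05 together with a mean log2 ratio of 0.585 or more in size. The fit was tested on simulated data with known changes. Arrays bring no read depth, and their number, 4, limits precision. The members and lists were chosen with earlier results of these data known. Named genes are all measured members and the 2 highest and 2 lowest turned means of the BMP and dorsal lists. Named as well are the 5 genes nearest to the members' median profile. Doc3, cited beside Doc1 and Doc2, and Mlc2, elav and the muscle and neuronal genes set beside them were picked after their values were seen. Alternatives covered the turning of experiment 4, a dye term, missing values, the summary of spots, scaling, centring, single probes, and leaving out arrays or members. No sequences were used here.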

Additional observations from a re-analysis of the deposited data

Results flagged for a closer look

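A search asked whether 1 of the 4 arrays stood far from the rest, by the gap to its nearest neighbour over the whole range, for each of the 9 genes and for their median, with experiment 4 turned and not turned. Of these 20 series 2 stood out, both with experiment 4 turned. Chance flags about 1 in 20 independent series of normally distributed values. These series share arrays and values, so their count cannot be weighed against that rate. For dpp the array was experiment 7, with a deposited log2 ratio of -0.0047, and for Ance it was experiment 7 as well, with -0.65. With experiment 4 not turned 0 of the 10 series stood out.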

How the results depend on the processing

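No member, no gene of the other lists and no gene at all passed the study's limits under any of the alternatives run. In the fits over genes, which leave out single probes, the limma adjusted p of the members ran from 0.719 to 1. The number of genes at an unadjusted p under 0.05 was 403 with experiment 4 turned, 205 with it not turned and 696 over single probes, and ran from 81 to 553 when arrays were left out, turned or not. Of the members, dpp lost that level with experiment 4 not turned and without experiment 3, 4 or 8. Without experiment 8, scw reached it with experiment 4 turned and Doc1 with it not turned. The medians of the members kept their sign on each array with centring and without Doc1 and Doc2. With centring, the count of 7 genes below 0 in experiment 7 and above 0 in experiment 8 stayed 7. Both also held in settings chosen after seeing the data (without dpp for the medians, clone RE45003 included for the count). Other summaries of spots and single probes could not change these results, because each member has 1 spot. Scaling cannot change a sign on a single array. Of 109 alternative means of single members, 16 changed sign, 12 of them with an array left out. The 109 include settings that could not move a member's mean. These are the other summary of spots and the limit to genes with values on all 4 arrays, which repeat the main mean for each member. With a dye term the means of Doc1, Doc2 and Ance changed sign, to 0.11, 0.0071 and 0.010, and with arrays scaled to each other that of Doc1 did, to 0.00049. With arrays left out, turned or not, the mean of scw ran from -0.26 to 0.077, tld from -0.28 to 0.11, tup from -0.27 to 0.11, Doc1 from -0.39 to 0.19, Doc2 from -0.37 to 0.12 and Ance from -0.22 to 0.16, while dpp ran from -0.46 to -0.024, ush from -0.24 to -0.022 and pnr from -0.27 to -0.08 with no change of sign. The mean of dpp was nearest to 0 with experiment 4 not turned and experiment 3 (-0.024) or 8 (-0.026) left out, and those of ush and pnr with it turned and experiment 7 left out. Experiment 7 decided the sign in 10 of these 12 cases and experiment 3 in 2. No paired analysis was possible because the samples form 1 group and each array already compares both conditions. The number of arrays, and the lack of intensities, limits what these values can show.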

Other observations

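A second clone, RE45003, lists Doc1 together with CG14500 and was left out for that reason. Its deposited log2 ratios were -1.02, -0.06, -0.06 and 0.19 in experiments 3, 4, 7 and 8, against -0.11, -0.39, -0.67 and 0.29 for clone RE59988, which lists Doc1 alone. The clones differed most in experiments 3 and 7, and which transcript RE45003 reads was not tested.

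Over the 9 dpp-group genes the ratios of experiments 7 and 8 correlated at -0.72 (Pearson), and over the 8 without dpp at -0.05. Those of experiments 4 and 7 correlated at 0.82 with dpp and 0.47 without it. Those of experiments 3 and 7 correlated at -0.79 with dpp and -0.56 without it. Within the group the relation of experiments 7 and 8 therefore rested on dpp, 1 gene read by 1 clone. The values of experiment 7 with experiments 3 and 4 were smaller in size without dpp and kept their sign. Only 8 genes remain there, so these values are coarse and were not tested. Over 8192 genes the same pairs had the opposite signs, at 0.29 with experiment 3 and -0.13 with experiment 4. Leaving out dpp also moved experiments 3 and 4 from -0.62 to -0.22. It moved experiments 3 and 8 from 0.47 to -0.18, and experiments 4 and 8 from -0.61 to 0.05. The signs in experiments 7 and 8 did not rest on dpp.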
